A study of Mus musculus with 2 samples.

Results

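The secreted plasma protein genes of liver were taken as 47 genes for clotting, complement, carrier and inhibitor proteins, chosen by function, with earlier results of these data known, out of 21938 protein-coding genes of the GENCODE vM21 annotation. All 47 were found in it. They were grouped into 12 roles. Chromatin accessibility had been measured by DNase-seq, in which the nuclease DNase I cuts open DNA and the cut ends are sequenced, in liver of B6NCrl mouse embryos at 11.5 days of development, with male and female embryos pooled. Both libraries, named here technical replicate 7 and technical replicate 1 as in the labels, came from 1 biological sample, so no value below has an error between animals and no test between groups was possible. Accessibility was compared between the 47 genes and all protein-coding genes, and between the 2 libraries.

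Hepatocytes make most proteins of blood plasma and secrete them into the circulation. Their precursors in the embryonic liver, the hepatoblasts, already transcribe part of this set, at a stage when the organ is mainly a site of red blood cell formation. Clotting proceeds through a cascade of serine proteases that ends with thrombin cutting fibrinogen to fibrin, and complement through a cascade that marks and lyses microbes. The promoters of such genes are mostly poor in CpG and are known to be bound by liver-enriched factors of the HNF4, FOXA and C/EBP families. In whole tissue, a low signal from fewer hepatoblasts cannot be told apart from a low signal in each hepatoblast.

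The lists of technical replicate 7 and technical replicate 1 held 86036 and 42422 peaks. Peak densities fell on whole multiples of 0.00401 in technical replicate 7 and 0.0101 in technical replicate 1, within 0.02 steps for 100% of the values tested. The headers leave the scale unstated; were a step 1 cut, with densities scaled to M cuts, the depths would be near 250 M for technical replicate 7 and 99 M for technical replicate 1. Sequencing instruments (2) are labelled for technical replicate 7 but not for the other library. Densities are therefore compared within a library, as the rank percentile of a peak in its own list. Of hepatoblast marker genes, 12 of 13 had a peak at a start in technical replicate 7 and 7 of 13 in technical replicate 1, against 9.81 and 8.74 that the CpG content of these genes would give. Alb was the marker with none, and Afp, Hnf4a, Dlk1 and Krt8 were among those listed for technical replicate 7 alone. Of erythroid markers 8 of 11 and 6 of 11 were open, against 2.90 and 2.19. The corresponding counts were 3 and 2 of 6 for endothelial markers, against 2.63 and 2.01, and 2 and 1 of 5 for macrophage markers, against 1.5 and 1. They were 5 and 4 of 5 for neural markers, against 4.45 and 4.18, and 4 and 4 of 5 for muscle markers, against 3.54 and 3.04.

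The sequences upstream of starts are shown for members that differ in accessibility, as the 250 bases before the RefSeq start (GRCm38.p6, read 5′ to 3′ on the gene's strand). Peaks of both libraries lay over those of F7, Pros1 and the downstream start of Rbp4. Peaks of technical replicate 7 alone lay over those of Fgb and Ambp, while Fga, C3 and C8b had a hotspot but no peak in the lists used. Capitals mark matches to the searched motifs of liver factors, STAT, GATA and the TATA box. The RefSeq table held promoters of 36 of the 47 members, and those without were Kng1, Proc, Plg, Masp1, C2, Cfb, Cfi, Trf, Ttr, Hp and Serpina6.
F7 (chr8:13025784-13026033, plus strand): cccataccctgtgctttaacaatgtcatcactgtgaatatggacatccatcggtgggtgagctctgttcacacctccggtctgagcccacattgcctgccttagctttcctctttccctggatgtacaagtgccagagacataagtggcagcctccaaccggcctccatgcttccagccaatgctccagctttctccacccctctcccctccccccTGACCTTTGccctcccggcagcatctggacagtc
Pros1 (chr16:62854057-62854306, plus strand): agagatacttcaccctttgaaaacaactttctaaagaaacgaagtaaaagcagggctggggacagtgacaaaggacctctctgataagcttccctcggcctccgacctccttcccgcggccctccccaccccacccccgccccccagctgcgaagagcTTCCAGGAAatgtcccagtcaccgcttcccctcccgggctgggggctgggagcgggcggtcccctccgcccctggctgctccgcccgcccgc
Rbp4 (chr19:38124812-38125061, minus strand): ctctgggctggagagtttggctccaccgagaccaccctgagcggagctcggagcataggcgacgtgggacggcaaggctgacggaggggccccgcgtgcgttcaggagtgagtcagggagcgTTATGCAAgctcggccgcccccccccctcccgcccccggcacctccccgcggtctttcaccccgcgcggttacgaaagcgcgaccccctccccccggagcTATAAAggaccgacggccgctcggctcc
Fgb (chr3:83049864-83050113, minus strand): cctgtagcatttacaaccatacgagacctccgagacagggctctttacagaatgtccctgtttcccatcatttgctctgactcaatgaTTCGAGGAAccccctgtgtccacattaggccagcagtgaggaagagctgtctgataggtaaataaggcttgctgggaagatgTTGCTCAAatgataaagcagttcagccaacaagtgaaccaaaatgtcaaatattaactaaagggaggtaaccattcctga
Ambp (chr4:63154173-63154422, minus strand): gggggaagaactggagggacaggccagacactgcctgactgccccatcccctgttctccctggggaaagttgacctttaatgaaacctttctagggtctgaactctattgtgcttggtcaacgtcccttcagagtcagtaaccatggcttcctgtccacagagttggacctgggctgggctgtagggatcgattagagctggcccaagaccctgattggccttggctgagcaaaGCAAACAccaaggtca
Fga (chr3:83025903-83026152, plus strand): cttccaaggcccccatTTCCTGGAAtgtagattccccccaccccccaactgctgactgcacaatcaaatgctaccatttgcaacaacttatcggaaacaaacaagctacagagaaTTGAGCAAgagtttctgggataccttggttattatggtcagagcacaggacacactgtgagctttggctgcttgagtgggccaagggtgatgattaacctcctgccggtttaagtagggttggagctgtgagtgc
C3 (chr17:57228137-57228386, minus strand): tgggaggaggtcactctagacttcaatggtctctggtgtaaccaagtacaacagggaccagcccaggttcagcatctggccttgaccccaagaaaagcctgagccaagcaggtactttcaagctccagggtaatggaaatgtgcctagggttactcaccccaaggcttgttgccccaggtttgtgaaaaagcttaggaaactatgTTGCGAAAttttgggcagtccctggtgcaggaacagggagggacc
C8b (chr4:104766067-104766316, plus strand): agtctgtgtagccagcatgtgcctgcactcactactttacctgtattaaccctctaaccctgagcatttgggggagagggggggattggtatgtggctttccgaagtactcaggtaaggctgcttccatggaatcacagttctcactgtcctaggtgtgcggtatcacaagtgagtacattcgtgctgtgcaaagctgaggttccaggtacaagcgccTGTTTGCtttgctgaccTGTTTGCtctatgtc

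In F7, the capitals at -34 to -26 are a match to CAAAGGTCA on the other strand, the letters searched as the HNF4 direct repeat. A footprint, a short stretch protected from DNase I inside an open region, covered it in technical replicate 7 from -36 to -21 (cctgacctttgccctc), and a footprint of technical replicate 1 reached into it from -46 to -30. In Fga, a footprint of technical replicate 7 from -134 to -127 lay on the C/EBP match at -135. In C3, one from -47 to -39 lay on the C/EBP match at -45. In C8b, the FOXA matches at -32 and -15 were each touched at their edge by a footprint, from -38 to -32 and from -21 to -15. The start of Rbp4 carries a TATA box at -28, touched only at its edge by a footprint of technical replicate 7 from -23 to -17. It also carries a C/EBP match at -128, overlapped by a footprint of technical replicate 1 from -129 to -122. Other matches had none. In Fgb, no footprint of either library was listed over the upstream sequence, with its STAT match at -162 and C/EBP match at -80. In Ambp, footprints of technical replicate 7 from -82 to -73 and from -57 to -49 missed the FOXA match at -16. Most footprints listed in the members' upstream sequences overlapped no match to the motifs marked in capitals. The Pros1 promoter holds several GC boxes (GGGCGG, not in capitals) and no match to the liver factor motifs searched, with a footprint of technical replicate 1 from -12 to -1 on those next to the start, and no listed footprint lay on its STAT match.

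Few plasma protein genes had open chromatin at a start in both libraries, and many more did in technical replicate 7 alone. A peak within 1 kb of an annotated start was present in both libraries for 8 of 47 members (17.0%), against 59.4% of all protein-coding genes. In technical replicate 7 it was present for 23 members (48.9%), against 65.3% of all genes, and in technical replicate 1 for 9 members (19.1%), against 59.9%. Of the members, 8 had a shared peak, 15 a peak in technical replicate 7 only, 1 in technical replicate 1 only, and 23 in neither list.

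**Figure D1:**
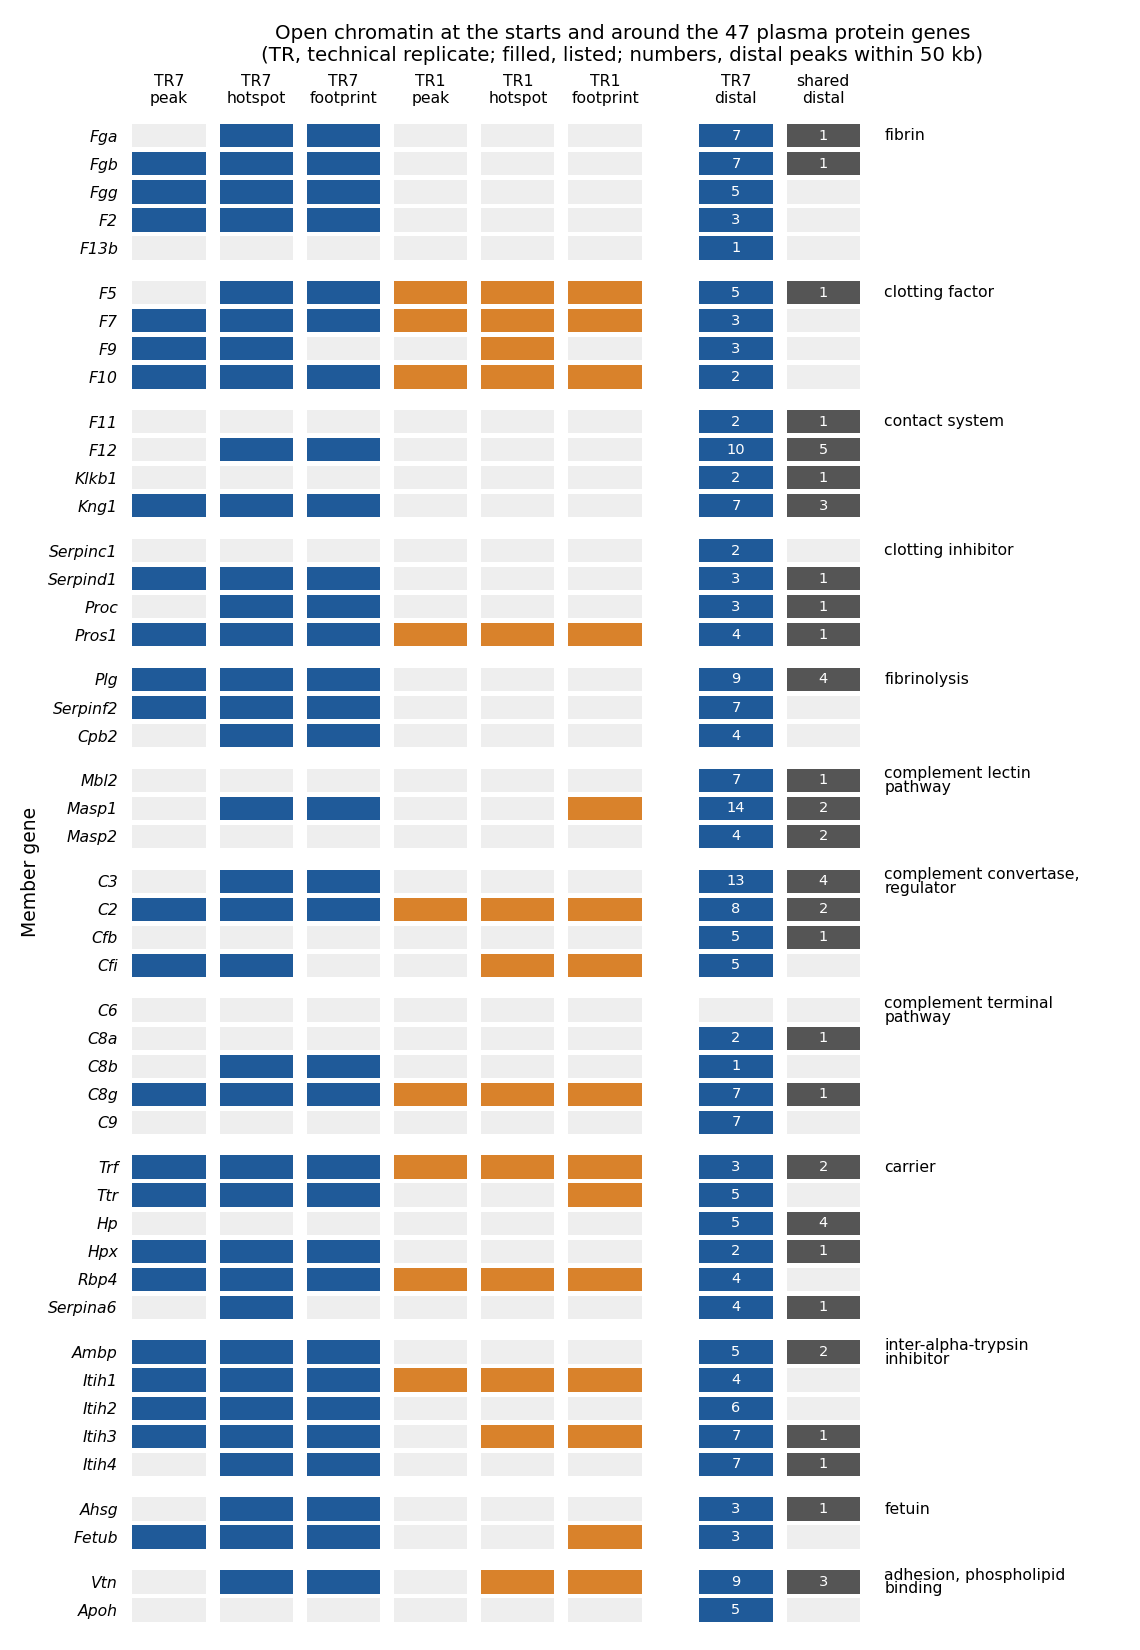
Each row is a member gene, grouped by role. Filled boxes show that a peak, hotspot or footprint was listed within 1 kb of a start in technical replicate 7 (blue) or technical replicate 1 (orange), and the boxes on the right give the number of peaks within 50 kb of the gene and over 1 kb from any start. The blue columns hold 23 peaks, 35 hotspots and 32 footprints, the orange ones 9, 13 and 15, and 46 of 47 members have a distal peak in technical replicate 7.

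The contrast with all genes went with CpG content. The members had a median observed over expected CpG of 0.214 in 1000 bp around the 5′ end, against 0.571 over all protein-coding genes, and 34 of the 47 lay in deciles 1 to 3. If each member were open as often as all genes of its CpG decile, 9.42 members would have had a shared peak, 13.7 a peak in technical replicate 7 and 9.53 one in technical replicate 1. Observed over expected was thus 0.849 for shared peaks, 1.68 for technical replicate 7 and 0.945 for technical replicate 1. Among the 34 CpG-poor members 15 (44.1%) were open in technical replicate 7, against 941 of 6582 genes (14.3%) in these deciles. In technical replicate 1, 5 of the same 34 (14.7%) were open, against 8.37% of genes. The excess over CpG-poor genes was large in the list with more peaks and small in the other. In deciles 4 to 10, 8 of 13 members (61.5%) were open in technical replicate 7, against 87.2% of genes, and 4 of 13 (30.8%) in technical replicate 1, against 81.9%. Of these 13 members 10 lay in decile 4, the lowest of the class, where 5 of 10 were open in technical replicate 7, against 49.6% of genes, and 1 of 10 in technical replicate 1, against 35.1%. Both members of decile 5 and the member of decile 8 were open in each library. The counts of 1 biological sample carry no test.

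**Figure D2:**
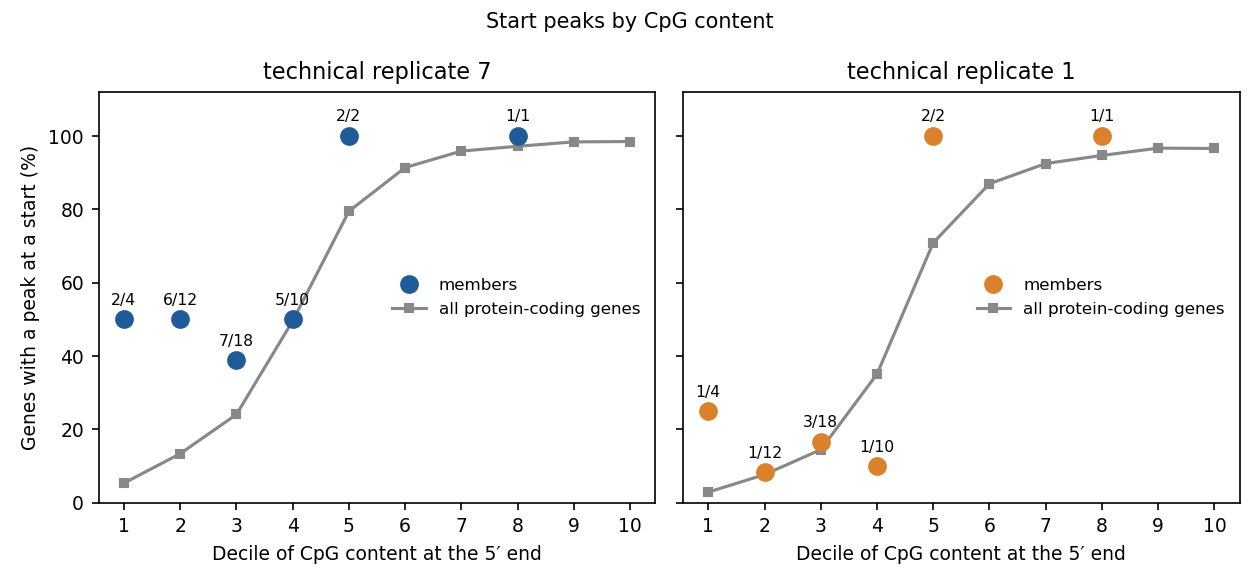
Share of genes with a peak at a start (y, percent) by decile of CpG content at the 5′ end (x; decile 1 is the poorest), for members (circles, with the number open of those in the decile) and all protein-coding genes (grey line), in technical replicate 7 (left) and technical replicate 1 (right). In technical replicate 7 the members of deciles 1 to 3 lie above the line, which runs from 5.38% to 24.1% there, and in technical replicate 1 the members of deciles 2 and 3 lie close to it.

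Where present, the start peaks were weak. In technical replicate 7 the strongest start peak of the 23 members had a median rank of 38.8, against 91.0 over the 14335 protein-coding genes with one and 61.7 over the 941 CpG-poor ones. In technical replicate 1 the median was 33.3 over 9 members, against 82.7 over all genes and 55.4 over CpG-poor ones. The 8 shared members had a median rank of 66.0 in technical replicate 7 (range 36.5 to 97.3) and the 15 listed for technical replicate 7 alone one of 20.6 (0.192 to 51.4), so the ranges overlap. The lowest of these, 0.192, means that almost all peaks of that list were denser. In classes of 20 rank points, 13.4 of the 23 members would have been open in technical replicate 1 too if they had followed all genes, against 8 observed. Up to rank 20, 0 of 7 members were also open in technical replicate 1, against 178 of 551 genes (32.3%). From rank 20 to 40 this held for 1 of 5 members, against 335 of 702 genes (47.7%), and from 40 to 60 for 1 of 5, against 674 of 1028 (65.6%). From rank 60 to 80 it held for 5 of 5 members, against 90.5% of genes, and above 80 for 1 of 1, against 99.7%. The members missing from technical replicate 1 thus lay below rank 60. The part that depth, list length or CpG content has in this was not tested.

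**Figure D3:**
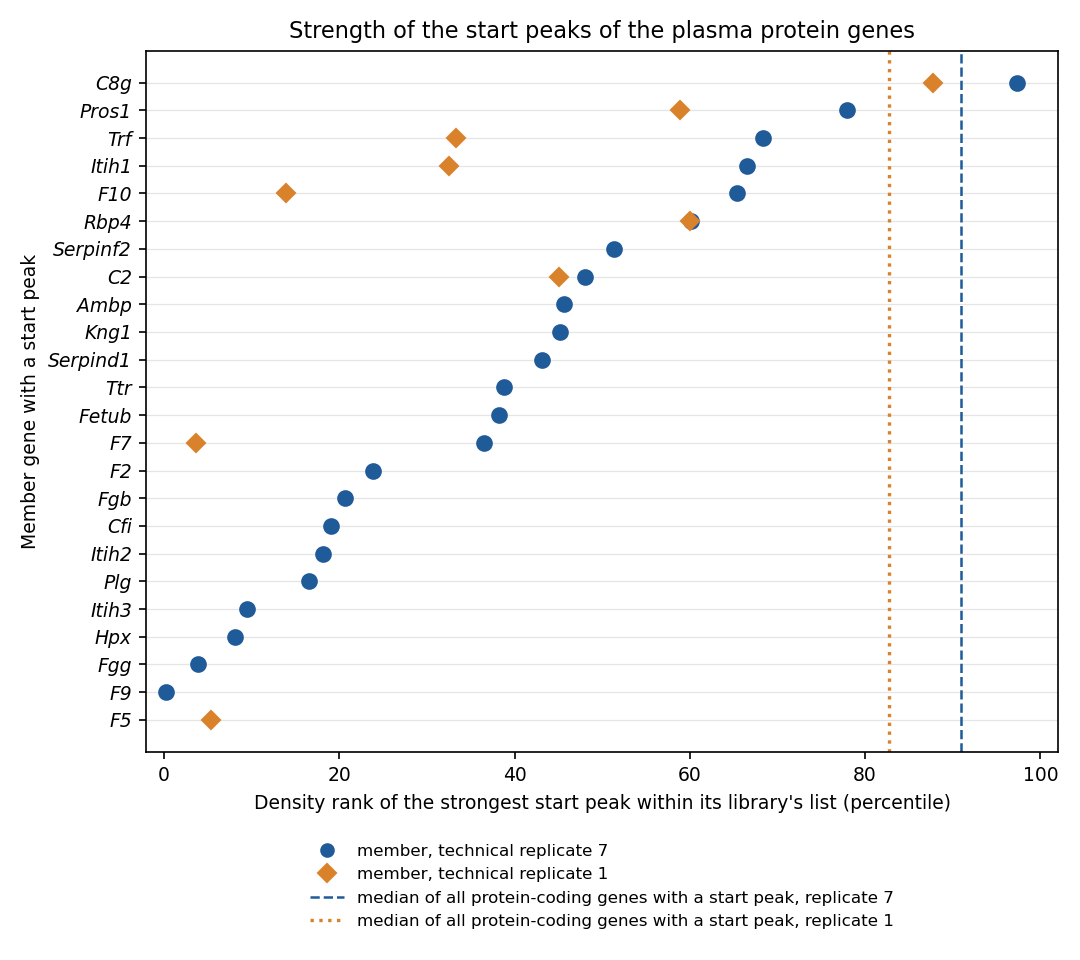
Rank percentile of the strongest start peak within its library's list (x) for the 24 members with one (y, ordered by technical replicate 7), in technical replicate 7 (circles) and technical replicate 1 (diamonds). Vertical lines mark the medians over all protein-coding genes with a start peak, 91.0 (dashed, technical replicate 7) and 82.7 (dotted, technical replicate 1). C8g alone lies right of the line of its library, in both libraries.

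Of the genes for fibrin formation, 3 of 5 had a start peak in technical replicate 7, and technical replicate 1 listed none. Fgb, the beta chain of fibrinogen, had a density of 0.409 (rank 20.6) at chr3:83049685-83050037, with the summit 46 bp inside the gene. Fgg, the gamma chain, had 0.312 (rank 3.86) at chr3:83007353-83007942. F2, prothrombin, had 0.425 (rank 23.8) at chr2:91636282-91636580, with the summit 12 bp from its start. Fga, the alpha chain, had a hotspot in technical replicate 7 with a −log10 FDR of 1.95 and no peak. F13b, the carrier subunit of factor XIII, had no peak, hotspot or footprint at its start in either library. The 3 fibrinogen genes share a locus, in which 7 distal peaks of technical replicate 7 and 1 shared one were listed.

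Of factors VII, IX and X with the cofactor factor V, 3 of 4 had a start peak in technical replicate 1, against 59.9% of all genes. These peaks were weak, with ranks of 3.64 to 13.9 in that library. F7, the protease that starts clotting with tissue factor, had 0.501 (rank 36.5) in technical replicate 7 and 0.626 (rank 3.64) in technical replicate 1, with summits 21 and 35 bp from its start at chr8:13025878-13026143 and chr8:13025824-13026243. F10, the protease that makes thrombin, had 0.869 (rank 65.4) and 0.778 (rank 13.9), at chr8:13037548-13037898 and chr8:13037179-13037924, over an exon and intron of the gene and nearest to a downstream annotated start. Both factors stand next to each other on chromosome 8, and each had its own peak. F9, the protease lacking in haemophilia B, had 0.236 in technical replicate 7 (rank 0.192; chrX:59999311-59999597) and only a hotspot in technical replicate 1 (−log10 FDR 1.53). F5, the cofactor of activated factor X, was the reverse case, with 0.657 in technical replicate 1 (rank 5.31; chr1:164151715-164152116) and only a hotspot in technical replicate 7 (−log10 FDR 3.06). In the longer list of technical replicate 7 F5 had a start peak as well.

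Of the contact system only Kng1, the kininogen that bradykinin is cut from, had a start peak, in technical replicate 7 (0.573, rank 45.2; chr16:23058117-23058367), with its summit 2 bp from a start. F12, the protease activated on surfaces, had a hotspot there (−log10 FDR 2.62). F11 and Klkb1, the proteases factor XI and plasma prekallikrein, had no peak or hotspot at a start. Among clotting inhibitors Pros1, the protein C cofactor protein S, was open in both libraries, with 1.28 (rank 77.9; chr16:62854126-62854444) in technical replicate 7 and 1.46 (rank 58.9; chr16:62854108-62854800) in technical replicate 1. Protein S is also made by endothelial cells. Serpind1, heparin cofactor II, had 0.553 in technical replicate 7 alone (rank 43.1; chr16:17331159-17331480), within an intron of the overlapping gene Pi4ka. Proc, protein C, had a hotspot in technical replicate 7 (2.86), and Serpinc1, antithrombin, had nothing listed at its start.

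In fibrinolysis both Plg, the precursor of plasmin, and Serpinf2, the plasmin inhibitor antiplasmin, were open in technical replicate 7 alone. Plg had 0.389 (rank 16.5; chr17:12378375-12378690) and Serpinf2 0.641 (rank 51.4; chr11:75439482-75439760), the densest start peak among those listed for that library only. Cpb2, a carboxypeptidase that slows clot lysis, had a hotspot (2.53).

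Complement genes were mostly without a start peak. In the lectin pathway none of Mbl2, the mannose-binding lectin, and the proteases Masp1 and Masp2 had one, and Masp1 had a hotspot in technical replicate 7 (2.73). C3, the component on which the pathways converge, had a hotspot in technical replicate 7 (2.96) and no peak in the shorter list, and Cfb, the protease of the alternative pathway, had neither. C2, the protease of the classical and lectin pathways, had 0.601 (rank 48.0; chr17:34895101-34895495) in technical replicate 7 and 1.17 (rank 45.1; chr17:34894887-34895556) in technical replicate 1. This region lies 271 bp from the most upstream C2 start, over an exon of Zbtb12. The start inside C2 carried a peak of technical replicate 7 alone (0.465, rank 31.0; chr17:34881965-34882256). Cfi, the protease that inactivates C3b, had 0.401 in technical replicate 7 (rank 19.0; chr3:129836057-129836441), 508 bp upstream, and a hotspot in technical replicate 1 (2.18).

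In the terminal pathway, which builds the membrane pore, C8g was the only member with a peak at a start, and the densest of all members. Its 4.69 in technical replicate 7 (rank 97.3; chr2:25500613-25500864) and 3.17 in technical replicate 1 (rank 87.8; chr2:25500603-25500927) lay 20 and 13 bp from the start of the neighbour Fbxw5, and 117 and 150 bp from an internal C8g start. The peak cannot be assigned to one of the genes. C8b had a hotspot in technical replicate 7 (1.89). C6, C8a and C9 had nothing listed at a start in either library, and C6 had no peak of either library within 50 kb.

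Of the 6 carriers 4 had a start peak in technical replicate 7 and 2 of these in technical replicate 1. Trf, the iron carrier transferrin, had 0.937 (rank 68.3; chr9:103230184-103230604) in technical replicate 7 and 1.00 (rank 33.3; chr9:103230155-103230555) in technical replicate 1, over its exon. The nearest protein-coding start in the annotation was that of Gm20425, 13 bp from the summit in technical replicate 7 and 44 bp in technical replicate 1. Rbp4, the retinol carrier, had 0.765 (rank 60.1; chr19:38124541-38125211) and 1.49 (rank 60.0; chr19:38124639-38125248). It was the most CpG-rich member, with a CpG ratio of 0.755 (decile 8). Ttr, the carrier of thyroxine and retinol-binding protein, had 0.517 (rank 38.8; chr18:20665179-20665554) and Hpx, the haem carrier hemopexin, 0.344 (rank 8.08; chr7:105600022-105600409), both in technical replicate 7 alone. Serpina6, the carrier of glucocorticoids, had a weak hotspot (1.33), and Hp, the haemoglobin carrier haptoglobin, had nothing listed at its start.

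Of the inter-alpha-trypsin inhibitors, which bind the hyaluronan matrix, 4 of 5 were open in technical replicate 7, against 65.3% of all genes. Clotting factors, with 3 of 4, were close, so these roles are not ranked. Itih1 was listed in both libraries with 0.893 (rank 66.5; chr14:30943915-30944167) in technical replicate 7 and 0.990 (rank 32.5; chr14:30943790-30944228) in technical replicate 1, at 757 and 759 bp upstream of its start. Ambp, the precursor of the light chain bikunin and of alpha-1-microglobulin, had 0.577 (rank 45.6; chr4:63154028-63154351) in technical replicate 7. Itih2 had 0.397 (rank 18.2; chr2:10130495-10130908) and Itih3 0.352 (rank 9.48; chr14:30923510-30923865) there, and Itih4 a hotspot only (1.70). Itih1, Itih3 and Itih4 share a locus on chromosome 14. Of the fetuins, Fetub had 0.513 in technical replicate 7 (rank 38.2; chr16:22919992-22920267) at an internal start, and Ahsg, the mineral-binding fetuin-A, a hotspot (2.01). Vtn, the adhesion protein vitronectin, had no start peak in the lists used but a hotspot in both libraries, with −log10 FDR 2.65 in technical replicate 7 and 21.5 in technical replicate 1. Whether these hotspots belong to Vtn or to the nearby start of Sarm1 was not tested. Apoh, which binds phospholipids, had no peak or hotspot at its start.

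The broader hotspots separated the libraries further. In technical replicate 7, 35 members (74.5%) had a hotspot at a start, against 70.2% of all genes and 17.8 expected from CpG content, and in technical replicate 1 this held for 13 (27.7%), against 65.0%, with 12.8 expected. In both libraries together it held for 13, against 64.5%. Members' hotspots in technical replicate 7 had a median −log10 FDR of 4.36, against 52.9 over all genes and 6.50 over CpG-poor ones. The 12 members with a hotspot and no peak there ranged from 1.33 to 3.06, with a median of 2.58. Footprints at a start were listed for 32 members (68.1%) in technical replicate 7, against 68.5% of all genes, and for 15 (31.9%) in technical replicate 1, against 65.6%. For 14 members (29.8%) they were listed in both, against 64.3%. The footprint lists come from different processing in the libraries, so their numbers are not compared. No peak or hotspot was listed in either library at the start of 12 members: F13b, F11, Klkb1, Serpinc1, Mbl2, Masp2, Cfb, C6, C8a, C9, Hp and Apoh. The matching count over all genes was not made, so the 12 are a list and not a contrast. Having a hotspot in technical replicate 7 was about as frequent in members (74.5%) as in all genes (70.2%).

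Away from starts nearly all members had open chromatin nearby in technical replicate 7. A peak within 50 kb of the gene and over 1 kb from any annotated start was listed there for 46 of 47 members (97.9%), against 83.7% of all genes and 34.3 expected from CpG content. C6 was the exception. Shared distal peaks were present at 28 members (59.6%), against 58.4%, with 22.8 expected, and distal peaks of technical replicate 1 likewise at 28, against 59.3%. The number per gene hardly differed, with a median of 5 distal peaks in technical replicate 7 per member, against 4 per protein-coding gene, in windows of median length 116445 bp for members and 117425 bp for all genes. Inside the gene body 17 members (36.2%) had a peak of technical replicate 7, against 42.7%, 7 (14.9%) a shared peak, against 19.4%, and 7 a peak of technical replicate 1, against 20.2%. Of the 23 members with no start peak, 16 had a shared distal peak, against 58.4% of all protein-coding genes. The share among all genes without a start peak was not counted.

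Neighbouring members share these windows, so the distal peaks were also counted once each. The 47 genes with their flanks formed 38 separate loci of 5.06 Mb, 7 of them with more than 1 member. The loci held 145 shared regions, of which 46 were distal, against 13605 of 34023 in the whole series. Shared regions numbered 28.7 per Mb in the loci, which are windows chosen around genes, against 12.5 over the genome. Of the 378 peaks of technical replicate 7 in the loci, 43.9% overlapped a peak of technical replicate 1 (exact 95% interval 38.8 to 49.1, counting error only), against 46.2% in its whole list. For distal peaks the shares were 26.5% (20.5 to 33.2; 53 of 200) in the loci and 29.4% in the whole list, so the peaks around members were shared about as often as others. Of the 46 shared distal peaks 16 lay nearest to a member's start among protein-coding genes, and the other 30 nearest to another gene.

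**Figure D4:**
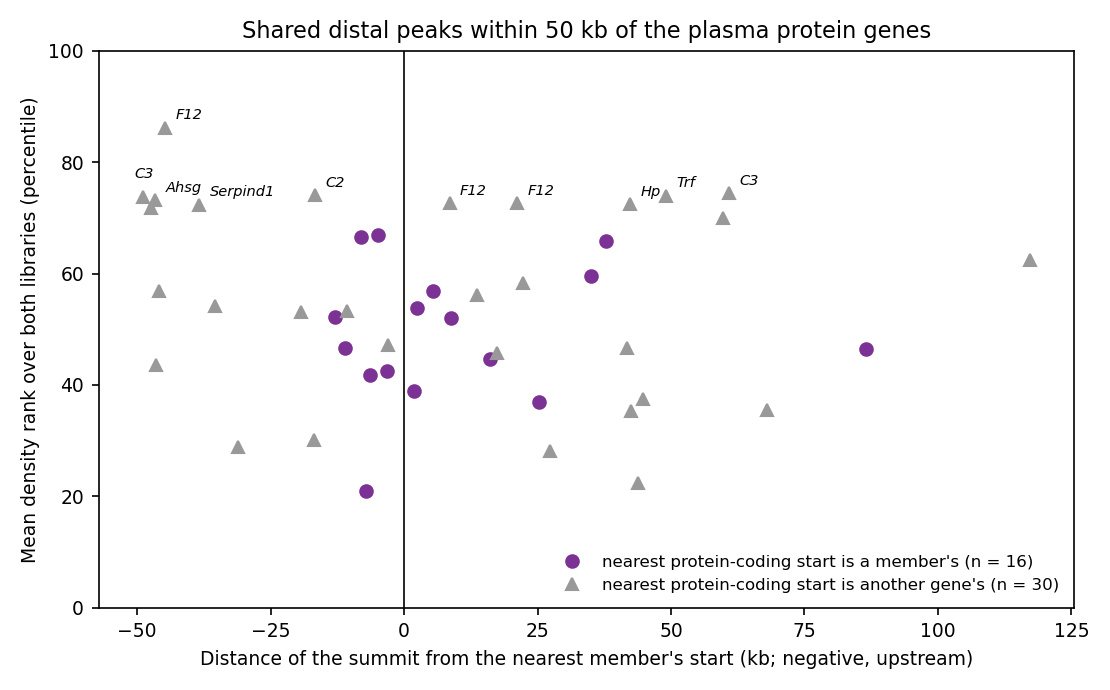
The 46 shared distal peaks by distance of the summit from the start of the nearest member (x, kb; inside or within 50 kb of the gene, so long genes reach beyond 50 kb) and mean density rank over both libraries (y, percentile). Circles have a member's start as the nearest protein-coding start and triangles another gene's, and names mark the nearest member of the 10 strongest, all of which are triangles.

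The 10 strongest shared distal peaks all lay nearer to the start of another gene. The strongest had 2.16 in technical replicate 7 and 2.85 in technical replicate 1 (mean rank 86.2; chr13:55471343-55471894), in an intron of Prr7, with its summit at -44775 bp from the start of F12 (negative values are upstream). C3 had one with 1.52 and 1.72 (74.4; chr17:57167100-57167351), nearest to Cd70, and one with 1.90 and 1.54 (73.8; chr17:57276921-57277146), nearest to Vav1. C2 and Cfb had one with 1.37 and 1.80 (74.1; chr17:34911991-34912417) in an intron of Ehmt2. The others were near Trf in an exon of Rab6b (74.0), near Ahsg in an intron of Tbccd1 (73.2), at F12 in an intron of Slc34a1 and in an intron of F12 itself (72.6 each), near Hp in an intron of Pmfbp1 (72.5) and near Serpind1 in an intron of Pi4ka (72.4). Of these 10 sequences 5 held the core letters of the insulator protein CTCF (AGNNGGCGC), against 13 of all 45 shared distal peaks around members with a sequence read. The 45 include the 10. The share among equally strong shared distal peaks of the whole series was not counted, so this is no trait particular to these loci.

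Shared distal peaks nearest to a member's own start had mean ranks of 20.9 to 66.9. Counting every shared distal peak within 50 kb, F12 had the most, 5, of which 2 lay inside the gene, and none at its start. Plg had 4, at 11037, 7084 and 6379 bp upstream of the start and in an intron 37815 bp into the gene (1.31 in technical replicate 7 and 1.32 in technical replicate 1; chr17:12416268-12416564). C3 and Hp had 4 each. Vtn had 3, at -10751 and -3039 bp in introns of Sarm1 and 1865 bp into the gene, and Kng1 had 3. Ambp had one 4979 bp upstream (1.45 and 1.31; chr4:63159014-63159283), Proc one 8106 bp upstream (1.35 and 1.33) and Hpx one 3273 bp upstream (1.11 and 0.747; chr7:105603173-105603545). The fibrinogen locus had 1, chr3:83080704-83081077, with 0.701 and 0.576. In technical replicate 7 Masp1 had the most distal peaks, 14, of which 2 were shared.

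The sequences of 3 shared distal peaks are shown (GRCm38.p6, extent of the peak of technical replicate 7), since they differ in the motifs they hold. The intron of Vtn has FOXA, HNF4 and C/EBP matches, the site upstream of Ambp a C/EBP match, and the strongest site, in Prr7, a CTCF core. Capitals mark these matches, of which HNF4 and C/EBP overlap in Vtn. Of the 45 sequences read, 1 held HNF4 letters, 5 FOXA, 7 C/EBP and 13 the CTCF core, so the Vtn site is not typical.
Intron of Vtn (chr11:78500840-78501115, plus strand): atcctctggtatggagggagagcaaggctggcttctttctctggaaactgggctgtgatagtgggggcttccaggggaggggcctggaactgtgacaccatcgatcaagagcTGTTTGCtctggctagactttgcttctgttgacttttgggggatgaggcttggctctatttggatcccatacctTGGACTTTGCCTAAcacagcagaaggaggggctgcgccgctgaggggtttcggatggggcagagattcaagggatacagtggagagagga
Upstream of Ambp (chr4:63159047-63159262, plus strand): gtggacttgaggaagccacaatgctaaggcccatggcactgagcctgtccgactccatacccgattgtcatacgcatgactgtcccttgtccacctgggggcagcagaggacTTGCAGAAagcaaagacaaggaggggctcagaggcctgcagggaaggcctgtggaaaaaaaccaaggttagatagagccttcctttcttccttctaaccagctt
Intron of Prr7, near F12 (chr13:55471439-55471721, plus strand): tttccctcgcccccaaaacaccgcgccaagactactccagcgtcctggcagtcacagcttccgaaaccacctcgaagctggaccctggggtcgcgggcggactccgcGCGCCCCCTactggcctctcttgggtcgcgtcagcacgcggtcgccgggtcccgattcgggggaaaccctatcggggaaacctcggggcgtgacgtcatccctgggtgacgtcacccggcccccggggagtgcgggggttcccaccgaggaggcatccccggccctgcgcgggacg

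Motif letters were searched on both strands from 250 bases before to 50 after the 5′ end of all 47 members and of all protein-coding genes. C/EBP letters (TTGCNNAA) were in 14 members (29.8%), against 10.3% of all genes and 15.3% of CpG-poor genes. STAT letters (TTCNNNGAA) were in 9 (19.1%), against 8.21% and 11.5%. The letters searched as the HNF4 direct repeat (CAAAGGTCA) were in 2 (4.26%), against 0.369% and 0.729%. The other HNF4 form (AAAGTCCA) was in 1 (2.13%), against 1.23% and 1.99%. FOXA letters were in 4 as TGTTTAC (8.51%, against 2.98% and 4.45%) and in 6 as TGTTTGC (12.8%, against 4.84% and 7.28%), and ONECUT letters (ATCAATA) in 3 (6.38%, against 1.82% and 3.68%). GATA letters (AGATAA) were in 4 (8.51%), against 9.91% and 17.2%. The TATA box (TATAAA) was in 6 (12.8%), against 12.5% and 23.1%, and the GC box in 6 (12.8%), against 44.9% and 7.19%. The CTCF core was in none, against 9% and 0.638%. STAT and C/EBP letters can overlap in part, and a match is a description of letters only.

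C/EBP matches were not confined to open starts. C/EBP letters were in 5 of the 23 members with a start peak in technical replicate 7 (21.7%) and in 9 of the 24 without one (37.5%). The HNF4 direct repeat was in 2 and 0 of these, TGTTTAC in 0 and 4, and TGTTTGC in 3 and 3. STAT letters were in 3 and 6. Within 75 bp of summits, the 200 distal peaks of technical replicate 7 around members held C/EBP letters in 12%, against 6.69% of all distal peaks of that library, the AAAGTCCA form of HNF4 in 3%, against 0.817%, the CTCF core in 15.0%, against 9.08%, and GATA in 16.0%, against 14.2%. FOXA letters were in 3.50% as TGTTTAC and 5% as TGTTTGC, against 2.48% and 3.65%, and the GC box in 11.5%, against 10.7%. STAT letters were in 3%, against 4.55%, the TATA box in 4%, against 4.36%, the HNF4 direct repeat in 0.5%, against 0.439%, and ONECUT letters in none, against 0.808%. Median GC content was 51.3% in the distal peaks around members and 51.7% in all distal peaks. The distal shares around members rest on 24 peaks for C/EBP, 6 for AAAGTCCA, 30 for CTCF and 32 for GATA. Those of the others rest on fewer than 24 each. For the members' 27 start peaks in technical replicate 7, the same windows held C/EBP letters in 14.8%, against 5.30% for CpG-poor genes. TGTTTGC was in 11.1%, against 2.62%, the HNF4 direct repeat in 7.41%, against 0.312%, and the TATA box in 7.41%, against 2.99%. GATA letters were in 3.70%, against 7.05%, the CTCF core in 3.70%, against 6.67%, and the GC box in 14.8%, against 30.9%. AAAGTCCA, TGTTTAC and ONECUT letters were in none. No motif was in more than 4 of the 27.

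Other gene lists were read the same way. Of 46 other plasma protein genes of liver, 6 had a shared start peak, against 8.08 expected from CpG content, and 18 a peak in technical replicate 7, against 12.1, so the split between the libraries was like that of the members. Those with a shared peak were Apob and Apoe of the lipoproteins, Hgfac, F8, Serping1 and Lcat. Of 24 clotting and complement genes made mainly outside hepatocytes, 11 had a shared start peak, against 8.03 expected, and 15 one in technical replicate 7, against 10.2. Among them were F3, Thbd, Plat, Plau, Plaur, Serpine2, Cd55, Cd59a, Cd46 and Cr2. Of 16 regulators of liver genes 13 were open in both libraries, against 10.7, and all 16 in technical replicate 7, against 11.8. Foxa3 had 5.36 in technical replicate 7 and 3.46 in technical replicate 1, and Cebpa 2.98 and 2.82, whereas Hnf4a had 0.717 and Nr1h4 0.324 in technical replicate 7 alone.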

How the data were processed

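The authors deposited, for each of the 2 libraries, peak, hotspot and footprint lists on the assembly mm10, per the labels. Which aligner and callers they ran is not given in the sources used here. Per the file headers, each peak has a signal value, its maximum DNase cut density. Per the file headers, each hotspot has the −log10 FDR (false discovery rate). Footprints of technical replicate 1 were deposited with 0.01 in every line, taken as a p-value threshold. A second hotspot file of that library, deposited with a score, enters no result.

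The shorter of the 2 alike peak lists of each library was used. Peaks of both libraries overlapping by at least 1 bp were joined into shared regions. Starts were those of GENCODE vM21 basic transcripts, with a window of 1 kb each side. Distal peaks lay over 1 kb from any start and within 50 kb of the gene. Expected counts sum, over members, the share of all protein-coding genes open in the same CpG decile. Interval and expectation steps were tested on simulated data. Promoter sequences came from RefSeq (GRCm38.p6). Members and lists were chosen with earlier results of these data known. Named in full were members with a start peak and those at the 10 distal peaks of highest rank, besides other listed genes with a shared start peak; a few listed genes and a motif are not reported here. With 1 biological sample no p-value was computed, and intervals (Clopper-Pearson, 95%) cover counting error only. Depth is not stated. Python 3.11.15, numpy 2.4.6 and scipy 1.17.1 were used.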

Additional observations from a re-analysis of the deposited data

Results flagged for a closer look

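An earlier peak list of technical replicate 1, with 99983 peaks and outside the comparisons above, held signal at the starts of more members than the list used. There 16 of 47 members had a peak at a start, against 67.0% of all protein-coding genes. Of these, 7 had none in the list used: Fgb, Masp1, Cfi, Ttr, Itih3, Fetub and Vtn. For 5 of the 7 (Fgb, Cfi, Ttr, Itih3 and Fetub) technical replicate 7 had a start peak.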

How the results depend on the processing

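Of 55 alternatives to 7 results, 40 kept the value within 1.5 times (for the ratio of observed to expected, within 0.520, its SD between the libraries). That SD is wide because the libraries differ. Ratios of 0.355 and 1.09 therefore counted as kept against 0.849, so the 40 say little about the stability of the ratio. No paired analysis was possible because both libraries belong to 1 group and no result comes from a test. Using a single library gave 9 to 23 members open at a start, a ratio to expectation of 0.945 to 1.68, 7 to 17 members with a gene-body peak, 28 to 46 with a distal peak, 168 to 378 peaks in the loci and 13 to 35 members with a hotspot, the higher value being technical replicate 7 for each. Members with a footprint numbered 15 to 32, from lists made by different processing. With the stronger 50% of shared peaks, 2 members were open at a start, 2 had a gene-body peak, 12 a distal peak, the loci held 80 shared regions, and the ratio to expectation was 0.355. Without standardisation on CpG content the ratio was 0.287. Flanks of 20 kb and 100 kb gave 75 and 254 shared regions in the loci, by their construction. With the earlier peak list of technical replicate 1, an alternative chosen after seeing the data, 13 members had a shared start peak and the ratio was 1.09. With only the 5′ end of each gene it was also 1.09. With the longer lists 10 members had a shared start peak; F5, F12, Proc, Cpb2, Masp1, C3 and Vtn then had a start peak in technical replicate 7 and Cfi one in technical replicate 1. Requiring the nearest protein-coding start to be the member's left 6 of 8, without C8g and Trf. Apart from flanks and lists, the cause of these moves was not tested.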

Other observations

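In technical replicate 1 Vtn had a hotspot with a −log10 FDR of 21.5 at its start and no peak in the list used within 1 kb, the highest such value among the 4 members with a hotspot and no peak there (Vtn, Itih3, Cfi and F9). A hotspot counted if it reached the 1 kb window. The start of the neighbour Sarm1 lay 1377 bp from a shared distal peak summit at -3039 bp from Vtn. Whether the hotspot belongs to Vtn or to Sarm1 was not tested. C2 had hotspots of 77.1 in technical replicate 7 and 29.1 in technical replicate 1, in a region it shares with Zbtb12.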
